A study of Mus musculus with 5 samples.

Results

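Mouse testis cells were sorted magnetically (MACS) with an antibody to Thy1.2, and the small RNAs of the retained (Thy1+) and the depleted (Thy1-) cells were sequenced and compared here miRNA by miRNA. The comparison held 4 of the 5 libraries of the series, 2 per fraction. All were freshly isolated testis cells of C57BL/6 mice with no transgene or treatment named in the labels, and the fifth library, a culture, was not used. Titles call the Thy1+ libraries enriched for spermatogonial stem cells (SSC) and the Thy1- libraries enriched for somatic cells. A separate label for cell type gives the stem cell name to the Thy1- samples as well, and the titles were followed. Ages, the number of mice pooled and whether replicates came from separate animals are not stated, so p-values measure only the spread between these samples, which may be technical. Every miRNA name with a read in the 4 libraries was a member, 588 names in all, of which at least 530 had a count in each library.

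MiRNAs are short RNAs cut from hairpin precursors that guide Argonaute proteins to messenger RNAs, mostly through pairing of the seed, which is bases 2 to 8 from the 5′ end. MiRNAs with 1 seed share many targets, and hairpins that lie side by side are often made from 1 transcript. Spermatogonial stem cells sit at the wall of the seminiferous tubule, renew themselves and give rise to the cells that enter meiosis. Thy1 is a surface protein used to enrich them, and in mice it is also carried by T cells and some stromal cells. Germ cells of the testis are known for a large set of miRNAs from the X chromosome, and the Sertoli cells that nurse them for miR-202.

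The sequences below belong to the miRNAs on which the results turn. They are RefSeq mature sequences (annotation on GRCm38.p6), written 5′ to 3′ with the seed in capitals. Of the 425 names that could be tested, 343 were placed through a RefSeq entry. The first set holds the miR-183 cluster and abundant miRNAs called higher in Thy1+ cells, and miR-146b, which shares its seed with miR-146a but was not called.
miR-182: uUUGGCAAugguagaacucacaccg
miR-183: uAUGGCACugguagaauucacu
miR-96: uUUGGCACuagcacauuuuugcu
miR-146a: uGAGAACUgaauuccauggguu
miR-146b: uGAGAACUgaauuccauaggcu
miR-142-3p: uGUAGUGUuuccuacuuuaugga
miR-200c: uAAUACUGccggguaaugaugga
miR-880: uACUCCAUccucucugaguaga
miR-741: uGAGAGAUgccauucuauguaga
miR-881: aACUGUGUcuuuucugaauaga

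Near-identical seeds link the embryonic stem cell cluster miR-290 to miR-295 with the miR-17 relatives. They are shown because miRNAs with the seed AAAGUGC were called in both directions, those with AAGUGCU in 1 direction only.
miR-291a-3p: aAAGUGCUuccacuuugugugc
miR-294: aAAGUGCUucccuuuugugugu
miR-295: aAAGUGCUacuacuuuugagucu
miR-106a: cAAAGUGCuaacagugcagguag
miR-20b: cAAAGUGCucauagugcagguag
miR-106b: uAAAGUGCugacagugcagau
miR-17: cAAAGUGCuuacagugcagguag
miR-20a: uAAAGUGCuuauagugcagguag
miR-93: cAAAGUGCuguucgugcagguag

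Of the products of the other arm of that cluster, 3 share the seed CUCAAAC. Also shown are 3 products of miR-465 that have 1 seed, and the 3 members of the miR-29 family, which have 1 seed and of which miR-29c was not called.
miR-290-5p: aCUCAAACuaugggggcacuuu
miR-292-5p: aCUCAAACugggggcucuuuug
miR-293*: aCUCAAACugugugacauuuug
miR-465a-5p: uAUUUAGAauggcacugauguga
miR-465b-5p: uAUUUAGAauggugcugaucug
miR-465c-5p: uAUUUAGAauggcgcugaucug
miR-29a: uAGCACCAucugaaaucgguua
miR-29b: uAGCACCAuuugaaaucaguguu
miR-29c: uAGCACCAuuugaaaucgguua

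MiRNAs called lower in Thy1+ cells are shown last, together with let-7a and let-7c, which were not called. The 9 let-7 and miR-98 sequences share the seed GAGGUAG, and the seeds of the other 6 printed here differ from each other.
let-7a: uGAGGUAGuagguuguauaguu
let-7b: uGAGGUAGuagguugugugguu
let-7c: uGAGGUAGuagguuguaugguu
let-7d: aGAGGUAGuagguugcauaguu
let-7e: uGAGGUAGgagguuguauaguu
let-7f: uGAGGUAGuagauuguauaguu
let-7g: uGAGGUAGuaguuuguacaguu
let-7i: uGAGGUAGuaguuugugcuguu
miR-98: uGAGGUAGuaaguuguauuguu
miR-322: cAGCAGCAauucauguuuugga
miR-503: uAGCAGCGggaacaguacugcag
miR-196a: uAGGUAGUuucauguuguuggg
miR-202-5p: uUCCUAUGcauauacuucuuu
miR-144: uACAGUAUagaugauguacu
miR-451: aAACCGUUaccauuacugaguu

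The files give raw read counts per sequence tag, and levels below are counts per 1000000 miRNA counts of a library (CPM), always listed as Thy1+ replicate 1, Thy1+ replicate 2, Thy1- replicate 1 and Thy1- replicate 2. The libraries held 937002, 947687, 2548234 and 4909753 miRNA counts, so the Thy1- fraction was read more deeply. Exactly matching tags made up between 90.9% and 93.3% of each library, and the mean tag length lay between 21.5 and 21.8 bases. The 10 most abundant names held 45.6% and 37.9% of the Thy1+ counts but 58.4% and 60.3% of the Thy1- counts. An exact two-sided permutation test of 2 against 2 libraries cannot go below p = 0.333, which is the value for that share. Ranks of the 425 tested names correlated at a Spearman rho of 0.955 within Thy1+ and 0.957 within Thy1-, and between 0.856 and 0.875 across fractions, a description over names that share libraries.

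Of 425 miRNAs tested, 87 were higher and 33 were lower in the Thy1+ fraction (edgeR quasi-likelihood test, Benjamini-Hochberg adjusted p under 0.05). These are 20.5% and 7.76% of the names tested, the background for every list below. The 2 fractions did not overlap in CPM for 63.8% of names, a share against which non-overlap has to be read. Called increases had a median log2 fold change of 2.43, from 1.48 to 5.04, and 77 of the 87 were at least 4-fold. Called decreases had a median of -1.96, from -1.44 to -4.25, and 15 of the 33 were at least 4-fold. A fold change is on the TMM scale, on which the median of all names lay near 0 (-0.07). With scaling to total counts instead the median was 0.51, and the split of calls became 110 higher and 11 lower. Those 11 were let-7e, let-7f*, miR-144, miR-147, miR-196a, miR-202-5p, miR-322, miR-451, miR-486, miR-503 and miR-504, so every other call of a lower level named below was lost with total counts. The calls needed both Thy1+ libraries, because leaving out either Thy1+ replicate 1 or Thy1+ replicate 2 left 0 calls in both directions, with 111 and 108 names at an unadjusted p under 0.05. Each such fit has 1 library in that fraction, assumed to vary like the pair that remains. The called names tested then kept their direction in 117 of 117 and 116 of 116 cases. All 87 and 33 called names had non-overlapping CPM, so this outcome was largely set by the selection and is no support.

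**Figure D1:**
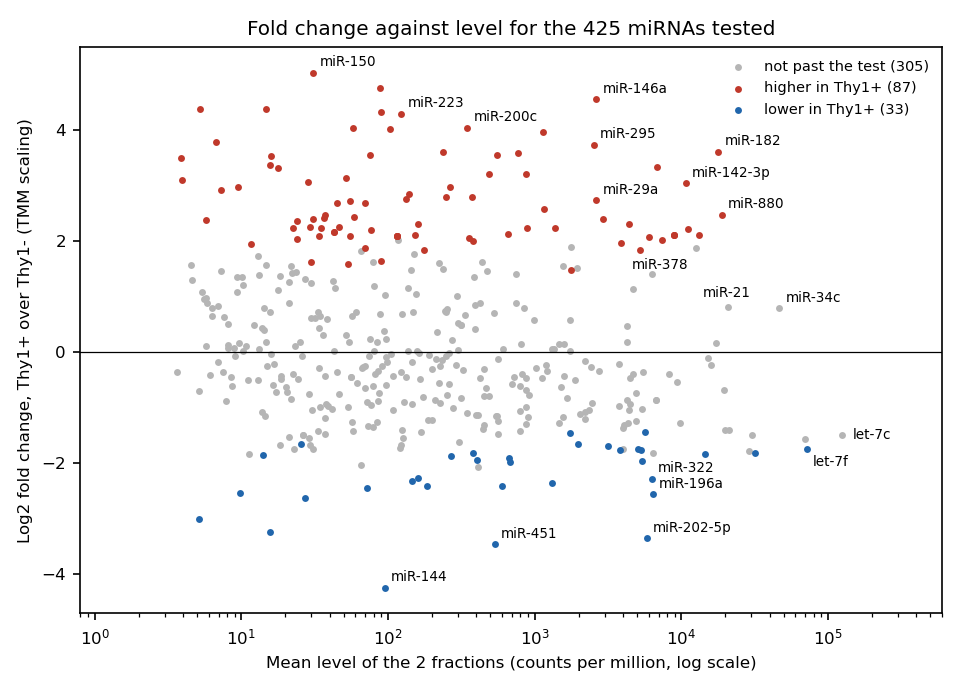
Log2 fold change of Thy1+ over Thy1- (vertical, TMM scaling) against the mean level of the 2 fractions (horizontal, CPM, log scale) for 425 miRNAs. Red points (87) were higher and blue points (33) lower past the test. The red points reach from the rarest miRNAs to miR-182 and miR-880, and the blue ones to let-7f.

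Calls came from every range of abundance. Among names below 10 CPM in their higher fraction, 2 rose and 1 fell of 20 tested. Between 10 and 100 CPM 29 names (19.7%) rose and 5 fell, and between 100 and 1000 CPM 29 names (20.4%) rose and 12 fell. Between 1000 and 10000 CPM 16 of 85 rose and 10 fell. At 10000 CPM or more 11 of 31 rose and 5 fell. Names that share all counts are each counted here. Among them are 3 names of miR-465-3p in this highest range and 4 of miR-466 between 100 and 1000 CPM.

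The called miRNAs accounted for a sizeable part of each library. The 87 names called higher held 26.4% and 29.8% of the Thy1+ counts and 3.76% and 3.16% of the Thy1- counts. The 33 names called lower held 9.88% and 10.1% of the Thy1+ counts against 27.3% and 22.5% of the Thy1- counts. These shares describe names picked by the same contrast and are no test of it.

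**Figure D2:**
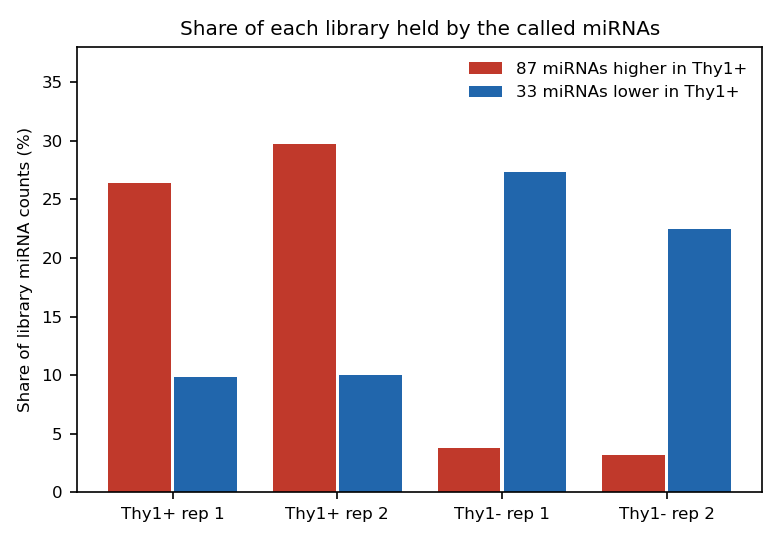
Share of a library's miRNA counts (vertical, percent) held by the 87 miRNAs called higher (red) and the 33 called lower (blue) in Thy1+ cells, for each of the 4 libraries. The red bars reach 26.4% and 29.8% in Thy1+ and stay below 4% in Thy1-, while the blue bars are near 10% in Thy1+ and above 20% in Thy1-.

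The hairpins of miR-183, miR-96 and miR-182, a conserved cluster best known from sensory organs, lay on the minus strand of chromosome 6 at chr6:30169668-30169737, chr6:30169446-30169551 and chr6:30165918-30165992 (GRCm38.p6), overlapping no other GENCODE M21 gene. All 4 products tested rose, with a median log2 fold change of 3.58. MiR-182 stood at 34213, 33098, 2897 and 1026 CPM, a log2 fold change of 3.61 (standard error, SE, 0.60, edgeR adjusted p = 0.0115). MiR-183 stood at 11673, 13785, 910 and 803 CPM, and miR-96 at 1172, 925, 90.3 and 38.3 CPM. In each case both Thy1+ libraries lay more than 10 times above both Thy1- libraries. The star strand miR-183*, at 239, 106.6, 7.46 and 4.89 CPM, moved with its partner (4.32, SE 0.71, edgeR adjusted p = 0.0115). Together the 4 products made up 4.73% and 4.79% of the Thy1+ libraries against 0.390% and 0.187% of the Thy1- libraries.

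Other hairpins of chromosome 6 were also among those called higher, 10 of the 14 tested names placed only on it, against 59 of 318 names placed on any single chromosome. Besides the miR-183 cluster they were miR-29a, miR-29a*, miR-29b*, miR-335-3p, miR-200c and miR-141. MiR-29a, a repressor of collagen and DNA methyltransferase messages, stood at 5524, 4001, 622 and 385 CPM (2.74, SE 0.51, edgeR adjusted p = 0.0146). MiR-29b stood at 508, 720, 163 and 46.4 CPM (2.05, SE 0.65, edgeR adjusted p = 0.0493). MiR-29c, which has the same seed, stood at 105, 86.5, 108 and 91.2 CPM with the 2 fractions overlapping (-0.59, SE 0.51, edgeR adjusted p = 0.417). MiR-29a lies at chr6:31062660-31062747 beside a copy of miR-29b at chr6:31063023-31063093, whereas miR-29c lies beside the other copy on chromosome 1 at chr1:195037547-195037634. Counts of mature miR-29b cannot be divided between its 2 copies, and the difference between miR-29a and miR-29c was not tested.

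MiR-200c and miR-141, which repress the Zeb transcription factors, are the members of the miR-200 family on chromosome 6. MiR-200c stood at 868, 464, 14.9 and 38.7 CPM (4.05, SE 0.79, edgeR adjusted p = 0.0164). MiR-141 stood at 50.2, 67.5, 10.99 and 7.74 CPM (2.10, SE 0.50, edgeR adjusted p = 0.0241). The members on chromosome 4 did not pass the test. Of these, miR-200b, which shares its seed with miR-200c, stood at 120, 92.9, 43.2 and 81.9 CPM, miR-200a at 102, 48.5, 187.6 and 154.8 CPM and miR-429 at 153.7, 78.1, 205.6 and 235 CPM. The levels of miR-200a and miR-429 were greater in both Thy1- libraries, and the list as a whole had 2 of 7 names called higher and 0 lower. The difference between the members was not tested.

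The miR-290 to miR-295 cluster on chromosome 7, typical of embryonic stem cells and early germ cells, had 14 names, of which 12 were tested and 11 rose (median 3.67). MiR-295 stood at 2189, 7456, 248 and 219 CPM (3.74, SE 0.64, edgeR adjusted p = 0.0115). MiR-291a-3p, with the same seed, stood at 1291, 1602, 109 and 57.4 CPM, and miR-294 at 739, 613, 120 and 23.6 CPM. MiR-292-5p, a product of the opposite arm, stood at 1112, 3260, 102 and 80.7 CPM (3.97, SE 0.63, edgeR adjusted p = 0.0115). Every Thy1+ library was above every Thy1- library for these 4, as for all 87 names called higher. The Thy1+ libraries differed most in miR-291b-5p, at 26.7, 319, 4.32 and 3.67 CPM. The cluster as a whole was a small part of the RNA, 0.782% and 1.82% of the Thy1+ libraries and 0.118% and 0.0718% of the Thy1- libraries. Its hairpins from miR-292 to miR-295 overlap an exon of Nlrp12 on the opposite strand (miR-295 at chr7:3220773-3220841). The related miR-302 cluster had 5 names and 0 tested, with a summed level of 7.47, 4.22, 1.18 and 0.611 CPM.

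Of 310 seeds, 56 had 2 or more tested names and 12 had 2 or more called names. Some of these called names share all counts, such as the 3 names of miR-465-3p, which are 1 measurement. Among the 12 seeds, AAAGUGC was the only one with calls in both directions. On the X chromosome, miR-20b stood at 963, 864, 51.4 and 79.8 CPM (3.22, SE 0.59, edgeR adjusted p = 0.0138) and its neighbour miR-106a at 158, 375.7, 40.4 and 40.1 CPM (2.11, SE 0.58, edgeR adjusted p = 0.0339). MiR-18b and miR-363, from the same stretch (miR-106a at chrX:52742503-52742567, miR-363 at chrX:52741693-52741767), rose as well, so that all 4 tested names of this list were called. MiR-19b also has a copy in this stretch (chrX:52741991-52742013) and another on chromosome 14. It was listed with the miR-17-92 cluster instead and was not called. On chromosome 5, in an intron of the replication gene Mcm7, miR-106b stood at 3346, 4662, 8763 and 6035 CPM and fell by 1.44 on the log2 scale (edgeR adjusted p = 0.049, SE 0.45). The same-seed miR-93, miR-17 and miR-20a, growth-promoting members of the 2 paralogous clusters, did not pass the test. MiR-20a, for example, stood at 19554, 16078, 13148 and 15485 CPM and miR-93 at 24888, 18426, 9118 and 16969 CPM. These autosomal members were each above the X-linked ones in all 4 libraries.

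X-linked miRNAs known from testis germ cells held larger shares of the Thy1+ libraries than any other list with names called higher. Of the group from miR-741 to miR-881, 9 of 14 tested names rose and 0 fell (median 2.04), and its share was 9.65% and 9.42% of the Thy1+ libraries and 1.71% and 1.15% of the Thy1- libraries. MiR-880 stood at 46185, 20989, 4286 and 4219 CPM (2.48, SE 0.60, edgeR adjusted p = 0.0259). MiR-741 stood at 19048, 26146, 5339 and 1990 CPM, and miR-881 at 11951, 27051, 3422 and 2190 CPM. Their hairpins lie close together (miR-741 at chrX:66796805-66796875, miR-880 at chrX:66800530-66800607). Of the neighbouring group from miR-463 to miR-471, 6 of 13 rose and 0 fell (median 1.88), and all 6 were products of miR-465, whose 3 hairpin types lie between chrX:66825955-66826035 and chrX:66839052-66839125. MiR-465a-5p stood at 11368, 13840, 2195 and 1994 CPM (2.02, SE 0.45, edgeR adjusted p = 0.0221). The 3 names of miR-465-3p have 1 sequence and carry 1 shared value, 13367, 17581, 1754 and 2922 CPM each. MiR-470, of the same group, stood at 16814, 25630, 6330 and 1802 CPM and narrowly missed the threshold (1.88, SE 0.60, edgeR adjusted p = 0.0517). Both groups were plentiful in the Thy1- libraries too, at over 10000 summed CPM each.

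Names on the X chromosome were called in both directions. Of 59 tested names placed only there, 20 rose and 9 fell, and those that fell included 6 of the 10 tested names of the cluster from miR-322 to miR-542 (median -2.02), which includes the cell cycle inhibitors miR-322 and miR-503. MiR-322, the mouse form of miR-424, stood at 3272, 2591, 8140 and 11233 CPM and fell by 2.29 on the log2 scale (edgeR adjusted p = 0.0221, SE 0.52). MiR-503 stood at 581, 567, 2534 and 1582 CPM and fell by 2.37 on the log2 scale (edgeR adjusted p = 0.0187, SE 0.48). Both Thy1- libraries were higher for each, as for all 33 names called lower, and the star strands miR-322* and miR-503* fell as well. With scaling to total counts 2 of the 10 names were called, with a list median of -1.52. MiR-322 and miR-503 lie at chrX:53054255-53054349 and chrX:53053984-53054054.

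The Sfmbt2 cluster, a run of rodent hairpins in an intron of that gene, was taken by hairpin name, which also takes in copies elsewhere, and the list had 20 of 34 tested names called higher and 0 lower (median 2.01). It was a minor part of every library, 0.672% and 0.640% of Thy1+ counts and 0.136% and 0.126% of Thy1- counts. MiR-297a, its most abundant tested member here, stood at 1185, 1073, 205 and 151 CPM (2.13, SE 0.50, edgeR adjusted p = 0.0237). MiR-466i, which RefSeq places on chromosome 13 and so outside that gene, stood at 273, 205, 30.2 and 19.1 CPM (2.77, SE 0.57, edgeR adjusted p = 0.0191). MiR-466k, also called, was placed on chromosome 3, and no other tested name of the list was placed. MiR-466 and miR-467 products are near copies of each other, and names that share all tags, such as miR-466a-3p, miR-466b-3p, miR-466c-3p and miR-466e-3p, are 1 measurement counted under 4 names. Leaving out tied tags gave 13 called names.

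**Figure D3:**
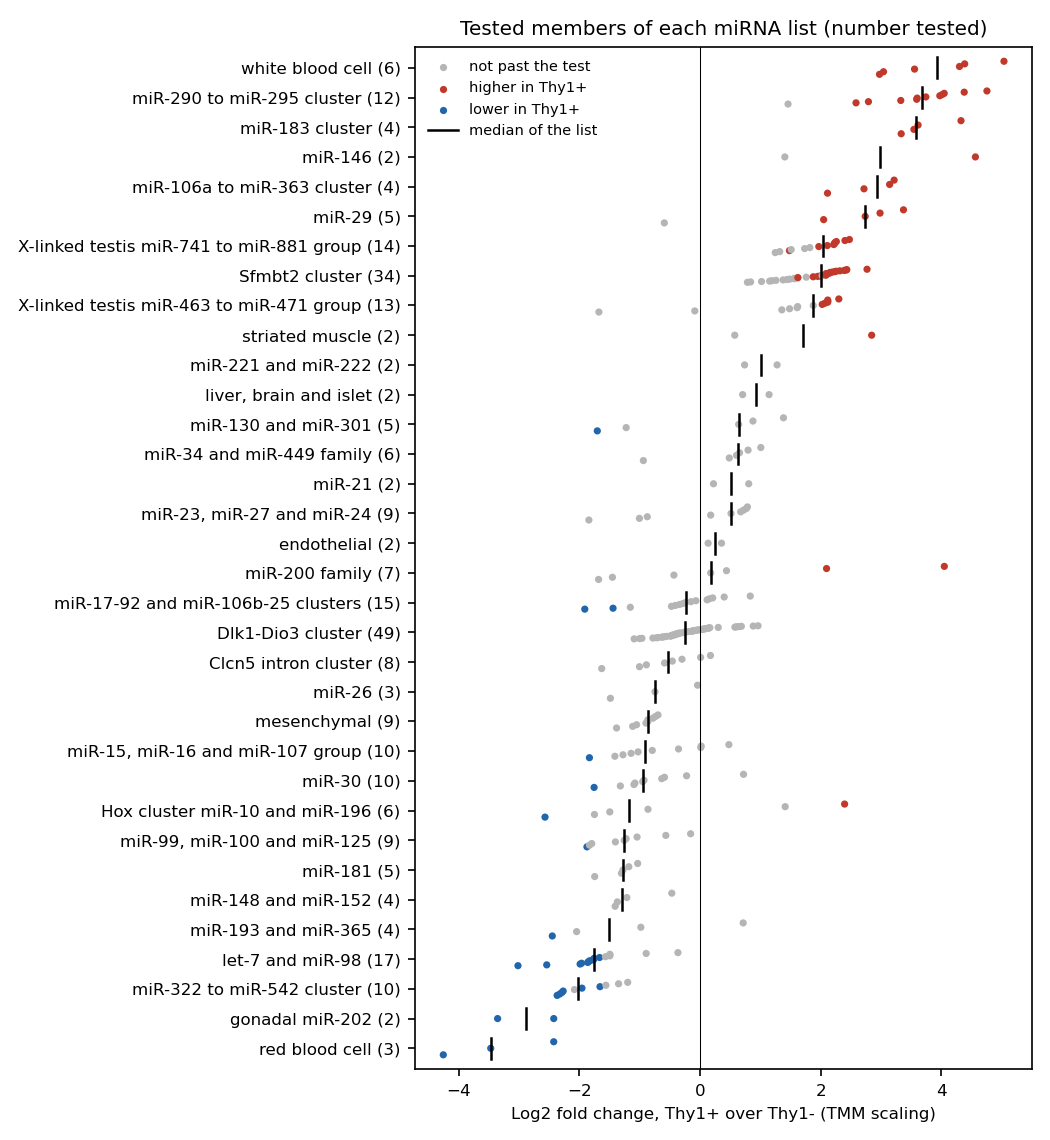
Log2 fold change of Thy1+ over Thy1- (horizontal, TMM scaling) for the tested members of each list, with the number tested in parentheses and the list median as a black bar. Red members were called higher, blue ones lower and grey ones neither. The white blood cell, miR-290 to miR-295 and miR-183 lists have medians above 3, the let-7, miR-322, miR-202 and red blood cell lists lie at the bottom, and the 49 members of the Dlk1-Dio3 cluster are all grey.

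The let-7 family, which is held back in stem cells by the RNA-binding protein LIN28, was the most abundant seed family in every library and was lower in the Thy1+ fraction. Its names, with miR-98, summed to 21.1% and 21.6% of the Thy1+ counts and 42.8% and 46.3% of the Thy1- counts. Of 17 tested names 11 fell and 0 rose (median -1.76), and of the 9 that share the seed GAGGUAG 7 fell. Let-7f stood at 43000, 42916, 122582 and 78438 CPM and fell by 1.75 on the log2 scale (edgeR adjusted p = 0.0356, SE 0.49). Let-7g stood at 8283, 8263, 25657 and 15626 CPM, and let-7e at 2828, 3100, 7455 and 8109 CPM. The 2 Thy1+ libraries nearly coincided for all 3. They lay below both Thy1- libraries, as for all 33 names called lower. Let-7c, which had the highest mean level in both fractions, stood at 81791, 92869, 142165 and 185777 CPM and did not pass the test (-1.49, SE 0.51, edgeR adjusted p = 0.0595), nor did let-7a at 48714, 45146, 81287 and 105800 CPM. The calls depended on the scaling: 2 of the 17 names were called lower with total counts, with a list median of -1.22.

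Products of miR-202, a gonadal miRNA of Sertoli and granulosa cells, were lower in Thy1+ cells in both arms. MiR-202-5p stood at 880, 1970, 17164 and 3239 CPM and fell by 3.35 on the log2 scale (edgeR adjusted p = 0.0234, SE 0.78). The 2 Thy1- libraries differed from each other more than the nearer of them did from the Thy1+ libraries, and without Thy1- replicate 1 the log2 fold change was -1.75. MiR-202-3p stood at 257, 235, 1419 and 473 CPM. MiR-196a, from the Hox clusters, stood at 3005, 2191, 5152 and 15130 CPM and fell by 2.57 on the log2 scale (edgeR adjusted p = 0.0326, SE 0.69). Its Hox cluster companion miR-10b stood at 14787, 27752, 36058 and 42410 CPM without passing the test. The level of miR-10a lay on the other side, at 12209, 7804, 2026 and 3091 CPM (1.41, SE 0.55, edgeR adjusted p = 0.0888), and its star strand miR-10a* at 63.0, 46.4, 4.32 and 9.17 CPM was called higher.

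Blood cell miRNAs moved with the fractions, those of white cells up and those of red cells down. All 6 white cell names tested rose (median 3.93), with a summed level of 14912, 26552, 2017 and 1346 CPM. MiR-142-3p, made throughout the blood lineage, accounted for nearly all of it at 14318, 25272, 1954 and 1294 CPM (3.04, SE 0.50, edgeR adjusted p = 0.0115). MiR-223 of myeloid cells stood at 170, 309, 5.89 and 9.57 CPM, miR-155 of activated immune cells at 132.3, 151, 9.81 and 6.72 CPM, and miR-150 of mature lymphocytes at 61.9, 59.1, 2.75 and 0.204 CPM. None of the 6 names was at 0 in any Thy1- library. MiR-146a, a feedback inhibitor of inflammatory signalling that is abundant in immune cells, stood at 4070, 6192, 238 and 67.6 CPM (4.56, SE 0.67, edgeR adjusted p = 0.0115). MiR-146b, with the same seed, stood at 1362, 998, 439 and 198 CPM and did not pass the test (1.41, SE 0.56, edgeR adjusted p = 0.0939). All 3 red cell names fell, with a summed level of 252, 179, 1344 and 1475 CPM. MiR-451 stood at 171, 74.9, 814 and 1073 CPM (-3.47, SE 0.68, edgeR adjusted p = 0.0164) and miR-144, which lies beside it on chromosome 11, at 17.1, 9.50, 195.4 and 160 CPM (-4.25, SE 0.65, edgeR adjusted p = 0.0115). In these bulk fractions, more cells of a type and more RNA per cell cannot be told apart, and the part of blood cells in the other differences was not tested. Thy1 messenger RNA was not measured in these libraries, so the sort was not checked on its own marker.

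Few markers of further cell types passed the test. None of 9 mesenchymal names (miR-143, miR-145, miR-199 and miR-214) passed the test (median -0.86 with TMM scaling and -0.25 with total counts), and their summed level was 27470, 38718, 46813 and 31360 CPM, with the fractions overlapping. Endothelial miR-126-3p stood at 1758, 2192, 814 and 1536 CPM, and 0 of the 2 miR-126 names passed the test. Of 2 striated muscle names tested, miR-206 stood at 149, 361.9, 33.7 and 14.7 CPM and rose (2.84, SE 0.65, edgeR adjusted p = 0.0221), whereas miR-1 at 1374, 1311, 998 and 295.3 CPM did not pass. The list for liver, brain and islet had 2 tested names, miR-9 and miR-375, and 0 calls.

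**Figure D4:**
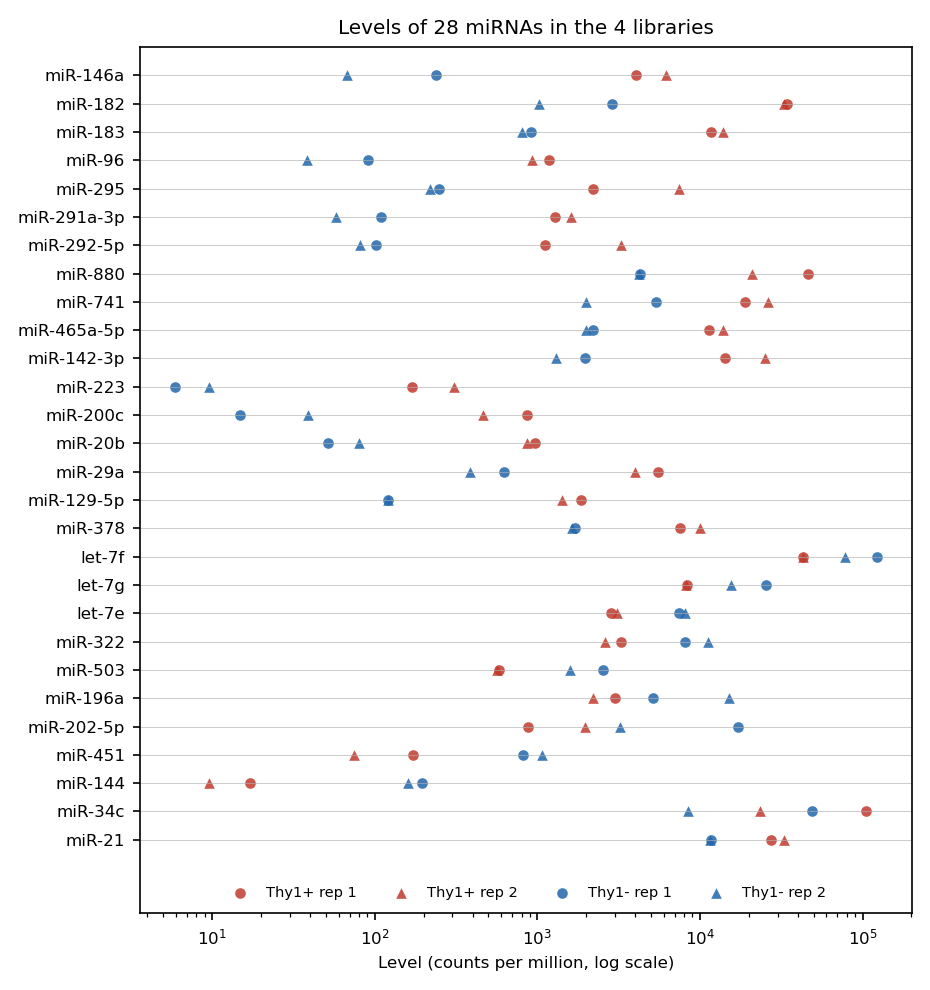
Level of 28 miRNAs (horizontal, CPM, log scale) in the 4 libraries, red for Thy1+ and blue for Thy1-, with circles for replicate 1 and triangles for replicate 2. Red and blue points are apart for all miRNAs shown except miR-34c, whose replicates spread from 8498 to 105485. Most of the miRNAs shown were called, and no called name had overlapping CPM, so the separation was largely set by the choice of names.

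Several called miRNAs belonged to no list, 18 higher and 3 lower among 129 tested. MiR-378, encoded in an intron of Ppargc1b, stood at 7585, 10062, 1698 and 1626 CPM (1.83, SE 0.45, edgeR adjusted p = 0.026) and was the most abundant of them. MiR-129-5p stood at 1848, 1410, 121 and 120 CPM (3.22, SE 0.54, edgeR adjusted p = 0.0115), and miR-129-3p, from the other arm, at 106.7, 142.5, 22.8 and 5.09 CPM. MiR-1195 stood at 2688, 2127, 514 and 217 CPM, and miR-92b, a seed relative of miR-363, at 346, 247, 55.7 and 57.6 CPM. The fractions did not overlap for these 5, but that held for all 87 names called higher and is no support. Lower in Thy1+ was X-linked miR-672, at 1169, 1285, 2095 and 2439 CPM (-1.46, SE 0.46, edgeR adjusted p = 0.0493).

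Both arms of a hairpin could be compared for 114 hairpins. In 14 both products rose and in 5 both fell, 18 had a call for 1 product only, 77 had none, and 0 had calls in opposite directions. These hairpins are not all separate measurements. The 3 miR-465 hairpins with both products higher share 1 value for the 3p product. Some miR-466 and miR-467 hairpins with 1 call share values too. MiR-335 had the largest gap between arms among hairpins with a call. Its hairpin lies in an intron of the imprinted gene Mest at chr6:30741299-30741396. MiR-335-3p stood at 618, 282, 40.4 and 49.5 CPM and rose (2.80, SE 0.67, edgeR adjusted p = 0.0252). MiR-335-5p stood at 271, 732, 480 and 337.3 CPM with the fractions overlapping (-0.30, SE 0.56, edgeR adjusted p = 0.712). The difference between the arms was not tested, and miR-335-5p was looked at after its values were seen.

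Many of the most abundant families showed smaller differences that did not pass the test. Of 49 tested names of the imprinted Dlk1-Dio3 cluster on chromosome 12, 0 were called, with a median log2 fold change of -0.25 on the TMM scale and 0.34 with total counts. Its most abundant member miR-379 stood at 12456, 22876, 14796 and 10848 CPM. MiR-21, a broadly expressed survival-promoting miRNA, stood at 27553, 32738, 11709 and 11526 CPM, apart in all 4 libraries yet short of the threshold (0.81, SE 0.45, edgeR adjusted p = 0.215), and total scaling called it higher. The lists of miR-30 (10 names tested), miR-15 with miR-16 and miR-107 (10), miR-99 with miR-125 (9), miR-181 (5), miR-148 with miR-152 (4) and miR-26 (3) had 0 names called higher. Lower were miR-30a, miR-107 and miR-99b*, 1 in each of the first 3 lists. MiR-30a stood at 2634, 3432, 9737 and 4494 CPM and fell by 1.75 on the log2 scale (edgeR adjusted p = 0.0365, SE 0.49). MiR-99b, the most abundant of these, stood at 23521, 10708, 35959 and 46495 CPM (-1.79, SE 0.61, edgeR adjusted p = 0.0595).

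The replicates of a fraction were not equally close for all miRNAs. Over the 258 names with at least 100 CPM in 1 fraction, the median size of the log2 ratio was 0.50 between the Thy1+ replicates, 0.63 between the Thy1- replicates and 1.02 between the fraction means. More than 4-fold differences were found for 11 names between the Thy1+ replicates, for 18 between the Thy1- replicates and for 71 between fractions. In Thy1-, 17 of the 18 were higher in replicate 1. MiR-34c, a miRNA of meiotic germ cells and multiciliated cells, stood at 105485, 23388, 48794 and 8498 CPM, high in replicate 1 of both fractions. It was the most abundant miRNA of Thy1+ replicate 1, and its log2 fold change of 0.80 (SE 0.93, edgeR adjusted p = 0.545) ran from -0.92 without Thy1+ replicate 1 to 2.44 without Thy1- replicate 1. MiR-449a, which has the same seed as miR-34a, followed the same order at 699, 151.9, 325 and 10.4 CPM, and miR-34b-5p at 634, 186, 374.8 and 72.5 CPM. None of the 6 tested names of the miR-34 and miR-449 family was called, and 4 were called higher without Thy1- replicate 1, where the spread comes from the Thy1+ libraries alone and the lone Thy1- library is assumed to vary like them. MiR-184 (2932, 2983, 1130 and 51.1 CPM) and miR-375 (293.5, 109, 139 and 3.67 CPM) were also high in replicate 1 of Thy1-, as was miR-202-5p.

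**Figure D5:**
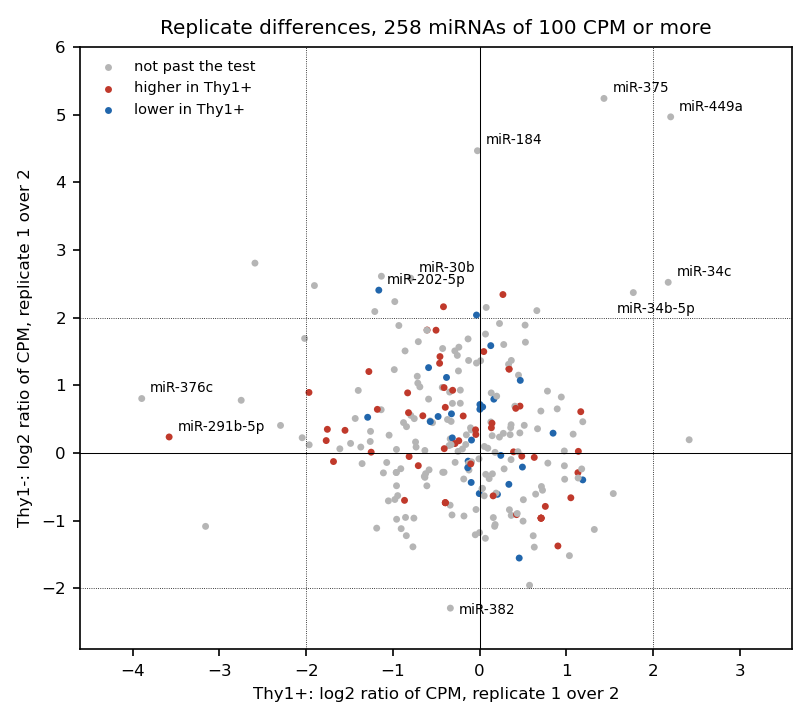
Log2 ratio of CPM between replicate 1 and replicate 2 in Thy1+ (horizontal) and in Thy1- (vertical) for 258 miRNAs with at least 100 CPM in 1 fraction, with dotted lines at 4-fold. Points above the upper dotted line were over 4-fold higher in Thy1- replicate 1, 17 in number, and miR-34c, miR-449a and miR-34b-5p lie to the upper right.

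Some called miRNAs rested on few reads. MiR-150*, the star strand of miR-150, had 8, 11, 1 and 1 counts, a depth-scaled ratio of Thy1+ to Thy1- of 37.6 (95% exact interval 9.07 to 333, counting error only). MiR-135a* had 6, 8, 0 and 3 counts, a ratio of 18.5 (5.15 to 100.2). Let-7f* had 2, 1, 16 and 55 counts, a ratio of Thy1- to Thy1+ of 5.98 (1.97 to 29.7). A further 163 names were too rare to test and together held at most 0.0395% of a library.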

How the data were processed

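Small RNA was isolated with Trizol and made into Illumina small RNA libraries, per the labels' protocols. The authors deposited, for each distinct tag, raw counts with no normalization and its placements on mature mouse miRNAs with up to 2 mismatches. Per the file names these came from miRBase 12.0, with tags of up to 35 bases. DESeq is listed, with no role, in the submitters' processing notes. The aligner, build and adapter trimming were not given in the sources used here.

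Each tag was counted at its placements with the fewest mismatches, tied names sharing it equally, and sums were rounded. An N in a tag passed as a match. Near-identical family members can exchange counts. Calls came from edgeR 4.0.16 (R 4.3.3; quasi-likelihood test, TMM, filterByExpr, two-sided, Benjamini-Hochberg over 425 names, threshold 0.05). DESeq2 1.42.0 and limma 3.58.1 (voom) were alternatives. Fits were tested on simulated data with as many rises as falls, which leaves the choice of scaling untested. Named miRNAs were taken by rule: the most abundant names, the largest called changes and mean differences of at least 100 CPM, the 4 most abundant members of each list, the steadiest abundant names, the largest uncalled changes, called names with few counts, and seeds with 3 or more calls. Other called names stand in the text as examples chosen after their values were seen. The lists and members were chosen with earlier results of these data known. Library intervals cover counting error only.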

Additional observations from a re-analysis of the deposited data

How the results depend on the processing

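Against 87 higher and 33 lower calls, RLE scaling gave 82 and 38, exactly matching tags 82 and 32, no tied tags 78 and 35, a filter of 10 CPM 79 and 28, and limma-voom 89 and 32. Lower calls were 11 with total count scaling, 59 without a filter on low counts and 61 with DESeq2. Leaving out 1 library gave between 0 and 99 higher and between 0 and 41 lower calls, the 0 without either Thy1+ library, where the smallest adjusted p was 0.0658 and 0.0979 (edgeR). In those fits the lone library of a fraction is assumed to vary like the other fraction's pair. Differences between replicates 1 and 2 were uncorrelated between the fractions (r = -0.04 over 388 names, 165 with 1 sign in both fractions). This cannot settle whether same-numbered samples came from the same animals or sort, which is not stated. A fit with the replicate number as a block called 28 higher and 4 lower. Of the calls, 60 higher and 10 lower were kept under every alternative on 4 libraries other than the block. With the block included, 26 higher and 4 lower were kept. The block fit called 0 names in both X-linked testis lists and in the let-7, miR-322 to miR-542 and miR-202 lists. In the Sfmbt2 list it called 1. No called name changed sign under any alternative run, an outcome largely set in advance because the CPM of called names did not overlap. MiR-34c ran from -0.92 to 2.44 with 1 library left out. MiR-335-5p stood at 0.30 with total counts and ran from -0.95 to 0.14 with 1 library left out. Depth limits names below about 10 CPM, of which 20 were tested. The causes were not tested.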
